A study of Homo sapiens with 4 samples.

Results

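The expressed ZNF genes are the genes with a symbol of ZNF, digits and at most 1 letter whose RNA stood at a log2 value of at least 8 in untreated U266 cells. They were selected on the mean of the 2 control arrays, with 1 transcript cluster (the set of probes for a gene) per symbol, and numbered 189 of the 502 ZNF genes measured and of 22411 genes in all. Of the 189 genes, 185 are annotated by RefSeq as protein coding and 4 (ZNF252P, ZNF542P, ZNF767P and ZNF788P) as transcribed pseudogenes. Since the control arrays chose the genes and also enter each fold change, levels and fold changes are given as descriptions.

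U266, an established human multiple myeloma line, was exposed for 24 h to trabectedin, which binds the minor groove of DNA, or served as control. The sample labels give the control as untreated, whereas the paper's methods name PBS. RNA of 2 trabectedin-treated and 2 control cultures, taken from 2 experiments, was hybridized to Affymetrix Human Transcriptome Arrays, with 1 array per culture. The dose is given as 2.5 nM in the sample labels and as 2.5 μM in the treatment protocol, and the sources do not say whether equal replicate numbers mark the same experiment. As RNA was pooled from all cells of a culture, a change in the share of cells that hold a transcript and a change in its amount per cell cannot be told apart.

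ZNF genes encode proteins with tandem C2H2 zinc fingers, in which each finger holds a zinc ion and several fingers together read a stretch of DNA. Many carry a KRAB domain, which recruits TRIM28 (KAP1) and through it SETDB1, the enzyme that places trimethylation on lysine 9 of histone H3, so that the bound site, often a transposable element, is silenced. Many human KRAB zinc finger genes arose by repeated duplication and lie in clusters on chromosome 19, and other ZNF proteins act as activators, splicing factors or ubiquitin ligases.

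The arrays were of similar overall level, with both trabectedin arrays slightly above both control arrays. Over all 70523 features the median log2 value was 5.33 and 5.37 with trabectedin, against 5.19 and 5.28 in control. On the 4 arrays 79.1% to 79.7% of features were below 8. The labelled cell type was checked against its markers: 8 of 9 measured plasma cell genes, among them SDC1, IRF4, XBP1 and TNFRSF17, had a control mean of at least 8, while MZB1 was at 6.40, and the 10 measured genes of B, T and NK, and myeloid cells were at 5.61 or lower. The number of arrays limits the precision, and the smallest two-sided p that an exact permutation test can reach with 2 arrays per group is 0.333.

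The median log2 value of the 189 ZNF genes was 9.53 and 9.28 in trabectedin replicates 1 and 2, against 9.21 and 9.04 in control replicates 1 and 2. After the mean of each gene over the 4 arrays was subtracted, the medians were 0.26 and 0.01 with trabectedin and -0.08 and -0.20 in control. Both treated arrays thus stood above both control arrays, but the treated arrays were also far apart: the median difference between trabectedin replicates 2 and 1 was -0.25, and that between control replicates 2 and 1 was -0.09. In the 6402 other genes with a control mean of at least 8, the same within-group differences were -0.04 and -0.05. Set against each control array in turn, trabectedin replicate 1 differed by a median of 0.34 and 0.48 and trabectedin replicate 2 by 0.10 and 0.19.

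**Figure D1:**
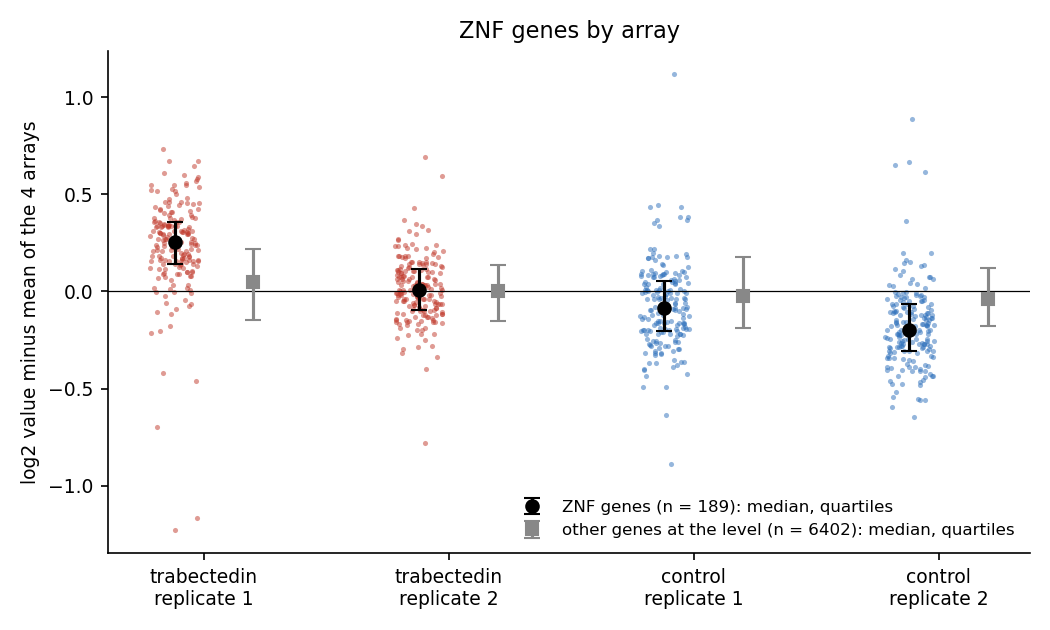
Log2 value of each of the 189 expressed ZNF genes minus its mean over the 4 arrays (y axis), by array (x axis), with the median and quartiles of the ZNF genes in black and of the 6402 other genes at the same control level in grey. The ZNF medians were 0.26 and 0.01 with trabectedin and -0.08 and -0.20 in control; on a scale set by ribosomal protein genes the median difference between groups was -0.014 in place of 0.27.

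The median log2 fold change (trabectedin over control) of the ZNF genes was 0.27, with quartiles at 0.12 and 0.43, and 164 of 189 genes had a value above 0, whereas scaling each array to 50 ribosomal protein genes turned this median to -0.014. That scaling lowered every fold change by 0.287 on the log2 scale and brought the median of all genes to -0.19, against 0.0971 as deposited. The 0.287 is a difference of array medians, averaged by group, of the 50 genes. Their own median log2 fold change was 0.21, so the sign of the ZNF median depends on which summary sets the scale. Repeated quantile normalization brought the median of all genes to 0.0014 and that of the ZNF genes to 0.22. Relative to the other genes at the same level, whose median was 0.10, the ZNF genes were higher by 0.17. The ribosomal protein scale moves every gene alike and so cannot change this difference, and repeated quantile normalization made it 0.18. Without trabectedin replicate 1 this difference was 0.085 and the median of the ZNF genes 0.14. Without trabectedin replicate 2 they were 0.31 and 0.41. The 313 ZNF genes below the level had a median of 0.12.

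By size, 16 ZNF genes (8.47%) were higher by at least 1.5-fold, a change met by 2.8% of all genes and by 5.44% of other genes at the level, and 3 (1.59%) were lower by at least 1.5-fold, against 4.63% of all genes and 11.2% of the others. The count of higher genes was 8 without trabectedin replicate 1, 41 without trabectedin replicate 2, 28 without control replicate 1 and 1 on the ribosomal protein scale. In 101 ZNF genes (53.4%) both trabectedin arrays were above both control arrays, against 35.8% of all genes and 32.9% of the others at the level, and in 11 (5.82%) both were below, against 13.5% of all genes and 23.2% of the others. At an adjusted p under 0.05, limma called 0 ZNF genes higher and 0 lower, as in all genes (0% and 0%). With the replicate number added to the model as a block, it called 17 higher and 2 lower (10.1%, against 6.21% of all genes). The sources do not say that this number marks an experiment, so the fit without a block is used for the p-values below. At an unadjusted p under 0.05, limma gave 44 of the 189 ZNF genes higher and 4 lower. Of all 22411 genes, 1635 were higher and 1501 lower at that p (14.0% in either direction). Of the 6402 other genes at the level, 779 were higher and 936 lower. The t-test named in the methods, likewise unadjusted, gave 22 ZNF genes higher and 4 lower (13.8%, against 10.7% of all genes). After Benjamini-Hochberg adjustment it gave 0.

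The 10 highest and 10 lowest genes by fold change were taken among the 112 whose groups did not overlap. ZNF844, a KRAB zinc finger gene on chromosome 19, had log2 values of 10.87 and 11.08 with trabectedin, against 9.85 and 10.14 in control. Its log2 fold change of 0.98 (SE 0.16, limma adjusted p = 0.104) was the highest of the 189 genes. ZNF543 had 11.07 and 10.47 with trabectedin, against 9.91 and 9.91 in control. It is another KRAB gene of chromosome 19, and its log2 fold change was 0.86 (SE 0.22), with trabectedin replicate 1 the higher of the treated arrays. ZNF829 stood at 10.09 and 9.85 with trabectedin and at 9.27 and 8.9997 in control, a log2 fold change of 0.83 (SE 0.16). ZNF778, on chromosome 16, had 10.44 and 10.32 with trabectedin, against 9.62 and 9.54 in control. The replicates of ZNF778 were close, and its log2 fold change of 0.80 (SE 0.11) had an adjusted p of 0.0864 by limma, the lowest among the genes that were higher. ZNF266 had 12.11 and 11.57 with trabectedin and 11.27 and 10.91 in control, for a log2 fold change of 0.75 (SE 0.24). ZNF367, on chromosome 9, which is not a KRAB gene, had 10.31 and 9.75 with trabectedin and 9.60 and 9.14 in control. In ZNF367 the lower treated array, at 9.75, hardly cleared the higher control array, at 9.60.

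The remaining 4 of the 10 highest, ZNF480, ZNF468, ZNF701 and ZNF808, are KRAB genes that lie in 1 group of neighbours on chromosome 19. ZNF480 had log2 values of 10.28 and 9.97 with trabectedin, against 9.33 and 9.35 in control. ZNF468 had 11.19 and 11.09 with trabectedin, against 10.37 and 10.43 in control. ZNF808, whose loss is known in people born without a pancreas, had 9.99 and 9.75 with trabectedin, against 9.16 and 9.22 in control. Their log2 fold changes were 0.79, 0.74 and 0.68, and that of ZNF701 was 0.69. Duplicated ZNF genes can resemble each other closely, and whether probes of these arrays read several of them was not tested, so that neighbours may not give independent values.

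The 3 lowest genes differed by more than any of the highest. ZNF609, on chromosome 15, a nuclear protein that in mouse neurons binds NIPBL and the Integrator complex and whose transcript also gives a circular RNA, had log2 values of 7.19 and 7.64 with trabectedin, against 9.54 and 9.31 in control. The difference of -2.01 (SE 0.19) was the largest of the 189 genes in either direction and far exceeded the spread within each group, yet its adjusted p was 0.0762 by limma, the lowest among the 189 genes. ZNF827, on chromosome 4, known to bring the NuRD complex to telomeres, had 7.31 and 7.60 with trabectedin, against 8.45 and 8.65 in control, a log2 fold change of -1.10 (SE 0.16, limma adjusted p = 0.0868). ZNF277, on chromosome 7, had 7.91 and 9.14 with trabectedin, against 9.51 and 9.74 in control. Most of its log2 fold change of -1.10 came from trabectedin replicate 1, and the value was -0.48 without that array and -1.72 without trabectedin replicate 2. ZNF148 (ZBP-89), a factor of GC-rich promoters on chromosome 3, had 9.39 and 9.76 with trabectedin, against 10.04 and 10.22 in control, a log2 fold change of -0.56. The other 6 of the 10 lowest, ZNF252P, ZNF236, ZNF511, ZNF302, ZNF69 and ZNF654, had values between -0.27 and -0.13.

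**Figure D2:**
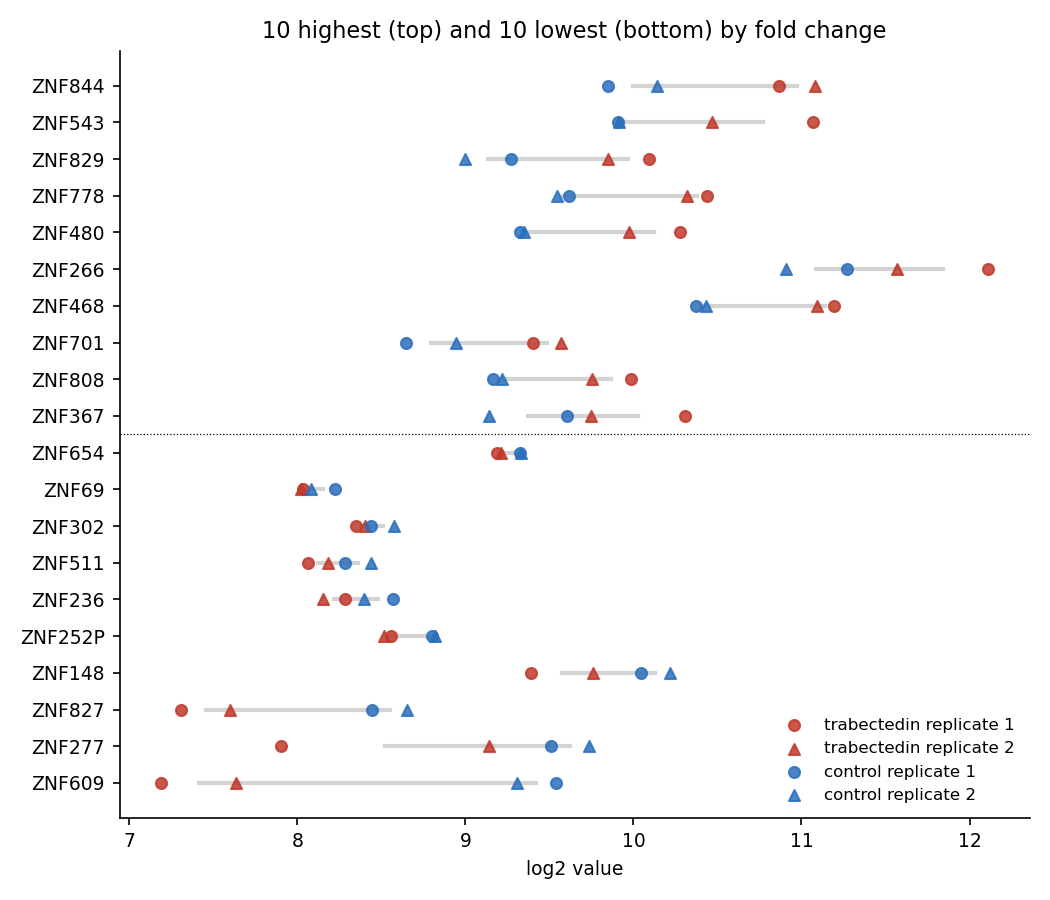
Log2 values (x axis) of the 10 highest and 10 lowest ZNF genes by fold change among those whose groups did not overlap, with trabectedin arrays in red, control arrays in blue, replicate 1 as circles and replicate 2 as triangles. Grey bars join the group means; ZNF844 spans 10.87 and 11.08 with trabectedin and 9.85 and 10.14 in control, and ZNF609 7.19 and 7.64 with trabectedin and 9.54 and 9.31 in control.

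The sequences in front of some of these genes are shown because short promoter words are shared by many of the ZNF genes. RefSeq windows (GRCh38.p14) of 250 bases before to 50 bases after the start were at hand for 166 of the 189 genes. Below are those of ZNF844 (chr19:12064481-12064780, plus strand), ZNF543 (chr19:57320222-57320521, plus strand), ZNF808 (chr19:52527418-52527717, plus strand) and ZNF609 (chr15:64460328-64460627, plus strand), written 5′ to 3′ with CGGAAG, the core bound by ETS factors, and CCAAT, the box bound by NF-Y, in capitals on either strand (CTTCCG and ATTGG on the reverse one).
ZNF844: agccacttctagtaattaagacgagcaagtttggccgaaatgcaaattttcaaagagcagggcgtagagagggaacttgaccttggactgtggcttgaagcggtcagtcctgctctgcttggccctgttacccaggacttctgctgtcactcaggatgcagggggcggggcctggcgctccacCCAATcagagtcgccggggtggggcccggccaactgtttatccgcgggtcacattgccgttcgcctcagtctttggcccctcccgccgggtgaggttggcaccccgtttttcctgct
ZNF543: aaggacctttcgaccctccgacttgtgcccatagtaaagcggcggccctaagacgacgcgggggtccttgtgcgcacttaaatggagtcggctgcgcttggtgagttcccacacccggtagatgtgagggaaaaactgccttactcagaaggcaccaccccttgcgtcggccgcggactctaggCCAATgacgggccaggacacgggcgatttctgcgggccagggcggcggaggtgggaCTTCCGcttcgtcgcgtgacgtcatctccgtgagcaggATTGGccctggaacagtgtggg
ZNF808: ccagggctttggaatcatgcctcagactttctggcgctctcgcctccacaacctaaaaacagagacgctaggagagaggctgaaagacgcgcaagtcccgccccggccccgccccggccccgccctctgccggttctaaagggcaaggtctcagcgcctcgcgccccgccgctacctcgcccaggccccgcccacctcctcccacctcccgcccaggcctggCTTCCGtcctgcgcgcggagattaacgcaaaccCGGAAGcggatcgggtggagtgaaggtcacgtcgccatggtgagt
ZNF609: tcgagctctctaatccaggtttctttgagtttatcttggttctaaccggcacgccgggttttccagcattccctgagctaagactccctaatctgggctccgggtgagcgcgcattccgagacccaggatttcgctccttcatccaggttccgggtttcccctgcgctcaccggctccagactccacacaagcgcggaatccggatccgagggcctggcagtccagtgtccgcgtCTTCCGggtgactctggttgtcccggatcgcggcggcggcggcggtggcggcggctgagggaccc
ZNF844 held 1 CCAAT box, ZNF543 1 ETS core and 2 CCAAT boxes, ZNF808 2 ETS cores, and ZNF609, the lowest gene, 1 ETS core. The ETS core was present on either strand in 105 of 166 ZNF windows (63.3%), in 39.0% of 4939 other genes at the level and in 19.86% of 27305 windows in all. CCAAT was present in 53.0% of ZNF windows, in 39.4% of the others and in 35.7% of all. Both were present in 58 ZNF windows (34.9%), against 15.0% of the others, and they overlapped in 0 of the ZNF windows. GGGCGG, the GC box, was in 68.7% of ZNF windows, 71.8% of the others and 44.5% of all, and TATAAA in 2.41%, 5.18% and 12.02%. ZNF genes with and without the ETS core had median log2 fold changes of 0.31 and 0.26, and those with and without CCAAT 0.27 and 0.31. These are matches of letters in 1 window per gene, and 28 of the genes have several windows, of which the one farthest 5′ was used.

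By chromosome, 116 ZNF genes (61.4%) lay on chromosome 19, against 5.26% of other genes at the level, and the remaining 73 were spread over 19 further chromosomes. The median log2 value of the chromosome 19 genes was 9.63 and 9.35 with trabectedin, against 9.27 and 9.09 in control. That of the ZNF genes elsewhere was 9.19 and 9.14 with trabectedin, against 9.16 and 8.996 in control. Median log2 fold changes were 0.29 on chromosome 19 and 0.20 elsewhere. All 3 ZNF genes lower by at least 1.5-fold lay off chromosome 19, where the lowest value was -0.14, and 13 of the 16 higher ones lay on it. On chromosome 19 both treated arrays were above both control arrays in 67 of 116 genes (57.8%) and below in 3 (2.59%). Elsewhere these numbers were 34 of 73 (46.6%) and 8 (10.96%). The same shares were 35.8% and 13.5% of all genes, and 32.9% and 23.2% of other genes at the level. The difference of 0.092 between the medians stayed above 0 with each array left out, though its size varied: it was 0.065 without trabectedin replicate 1, 0.15 without control replicate 1 and 0.19 without trabectedin replicate 2. It was 0.036 among genes of up to 100 kb.

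Other genes of chromosome 19 did not stand out in the same way. The 337 of them at the level had a median of 0.11, close to 0.10 for other genes elsewhere. Their median length, however, was 14.7 kb, against 32.7 kb for those elsewhere. Among genes of 10 to 50 kb, 98 ZNF genes of chromosome 19 had a median of 0.32, against 0.10 for 185 other genes of that chromosome. On the remaining chromosomes 39 ZNF genes had a median of 0.24, against 0.20 for 2561 others. At this length the other genes were thus lower on chromosome 19 than elsewhere, while the ZNF genes were higher on it. Chromosome 7, with 14 ZNF genes, had a median of 0.31, chromosome 6 (5 genes) 0.36 and chromosome 1 (7 genes) 0.24. On chromosomes 3, 10 and 15, with 5 genes each, the medians were 0.18, 0.05 and 0.04, and 13 chromosomes held fewer than 5 genes each.

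Along chromosome 19 the ZNF genes were divided wherever neighbours lay over 1 Mb apart, which gave 13 groups, 7 of them with at least 5 genes. The 18 genes from ZNF175 to ZNF765 had a median log2 fold change of 0.44, and all 18 were above 0. In 15 of them (83.3%) both trabectedin arrays were above both control arrays, against 53.4% of the 189 ZNF genes and 35.8% of all genes. This group had the most genes past 1.5-fold and includes ZNF480, ZNF468, ZNF701 and ZNF808, already named among the 10 highest. The centred medians of the 18 genes were 0.25 and 0.19 with trabectedin, against -0.18 and -0.27 in control. Trabectedin replicate 2 thus lay close to replicate 1. In the 26 genes from ZNF580 to ZNF8, near the end of the long arm, the same medians were 0.33 and -0.01 with trabectedin, against -0.08 and -0.14 in control. There trabectedin replicate 2 stood near the control arrays. The median log2 fold changes of the other groups were 0.45 for the 5 genes from ZNF317 to ZNF562, 0.42 for the 12 from ZNF823 to ZNF791, 0.31 for the 14 from ZNF146 to ZNF607, and 0.28 for both the 16 from ZNF101 to ZNF208 and the 15 from ZNF428 to ZNF229. That of the ZNF580 to ZNF8 group was 0.27. The groups overlap widely in their single values and no difference among them was tested.

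**Figure D3:**
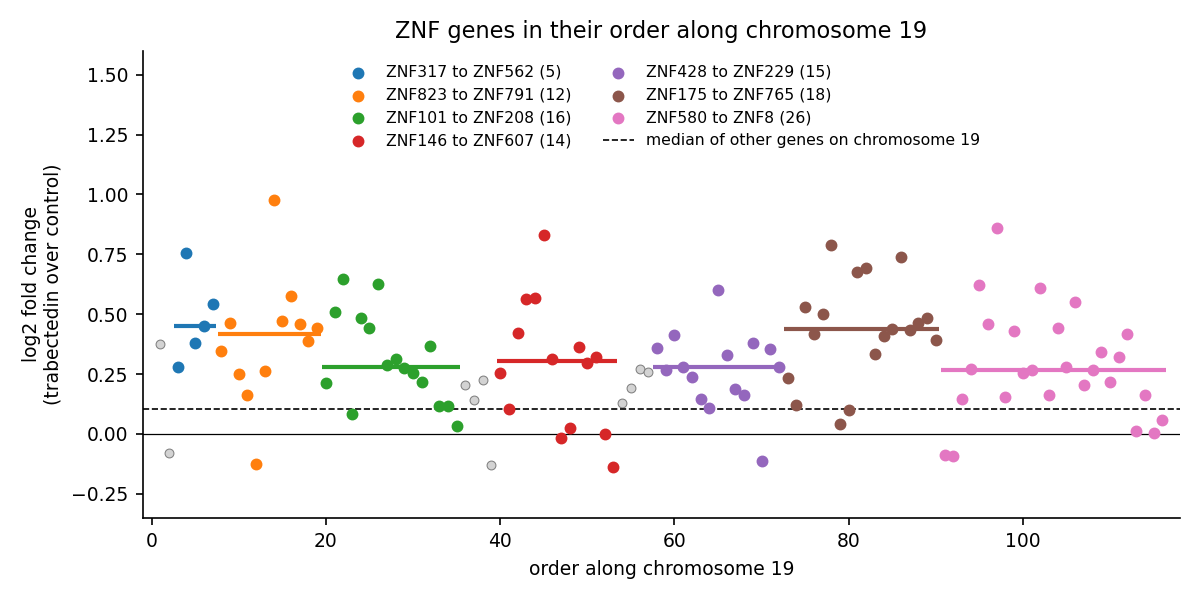
Log2 fold change, trabectedin over control (y axis), of the 116 ZNF genes of chromosome 19 in their order along it (x axis), coloured by group of neighbours, with the number of genes in brackets and coloured lines at group medians; grey points are groups of fewer than 5 genes. The ZNF175 to ZNF765 group has its median at 0.44 and all 18 genes above 0, and the dashed line marks the median of 0.11 of other genes on the chromosome; the ribosomal protein scale would lower every point by 0.287.

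Gene length went with the fold change. The 6398 other genes at the level with a length had a Spearman rho of -0.58 between length and log2 fold change, whereas the ZNF genes had a rho of -0.22, and of -0.12 for the 179 of up to 100 kb. These are descriptions across genes, which share the 4 arrays. Between 10 and 20 kb the 54 ZNF genes had a median of 0.28, against 0.24 for the others, and between 20 and 30 kb the 44 ZNF genes had 0.31, against 0.20. The gap was wider in longer genes: 0.29 against 0.14 at 30 to 50 kb (39 ZNF genes), and 0.25 against -0.04 at 50 to 100 kb (26 ZNF genes). Above 100 kb, 10 ZNF genes had a median of -0.12, against -0.70 for 1037 others.

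Those 10 long genes held the 4 lowest ZNF genes, ZNF609 (226 kb), ZNF277 (137 kb), ZNF827 (181 kb) and ZNF148 (150 kb). The others ranged from -0.26 in ZNF236 to 0.31 in ZNF420, the only one of the 10 on chromosome 19. With genes above 100 kb left out, 0 ZNF genes were lower by at least 1.5-fold and the excess over other genes was 0.12. The median length was 25.7 kb in the ZNF genes and 31.1 kb in the others, and its part in the 0.17 difference beyond these values was not tested.

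**Figure D4:**
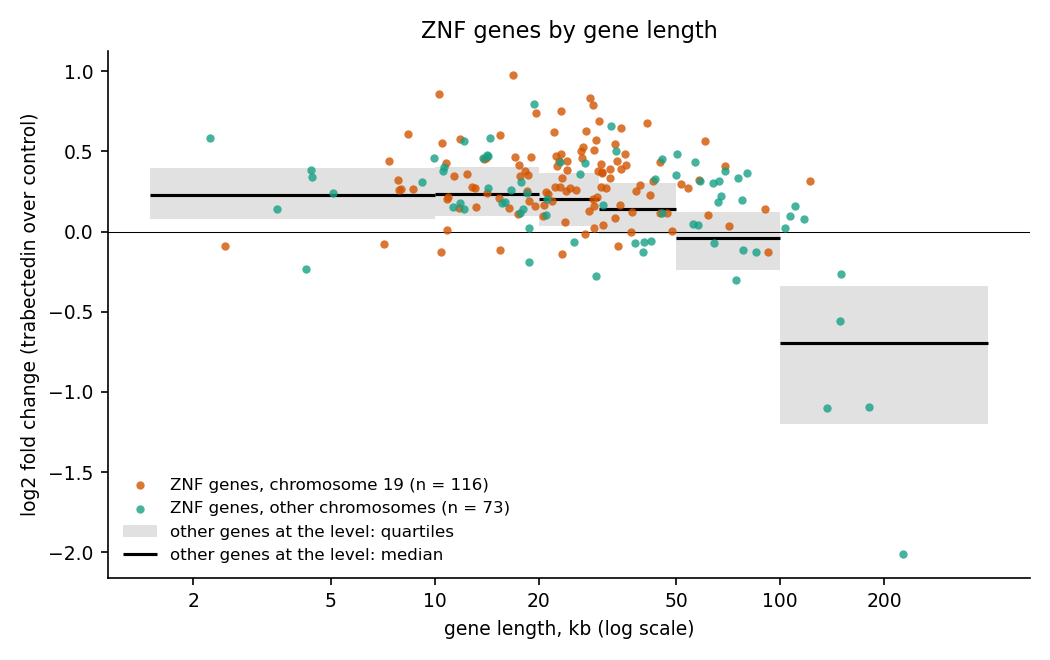
Log2 fold change, trabectedin over control (y axis), of the 189 ZNF genes against gene length in kb (x axis, log scale), with chromosome 19 in orange and other chromosomes in green; black lines and grey boxes are medians and quartiles of other genes at the same control level by length. At 50 to 100 kb the ZNF median is 0.25, against -0.04 for the others, and the lowest point is ZNF609 at -2.01; the ribosomal protein scale would lower every point by 0.287.

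By level, the 94 ZNF genes above a mean of 9.26 over the 4 arrays, the median of the set, had a median log2 fold change of 0.34, with 13 higher and 0 lower by at least 1.5-fold. The 95 at or below it had 0.22, with 3 higher and 3 lower. The difference of 0.12 between these medians was 0.19 without control replicate 2. The 4-array mean includes the trabectedin arrays, so the split itself moves genes that fell toward the lower set. ZNF609 and ZNF277, among the 3 lower genes, had 4-array means of 8.42 and 9.07 but control means of 9.42 and 9.62. Spearman rho between fold change and level was 0.32 with the 4-array mean and 0.17 with the control mean. Split by control mean instead, the medians were 0.24 at 8 to 9 (83 genes), 0.31 at 9 to 10 (71), 0.34 at 10 to 11 (20), 0.22 at 11 to 12 (10) and 0.46 at 12 and over (5), while other genes stayed between 0.09 and 0.12 throughout. Both levels are themselves a part of the fold change.

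**Figure D5:**
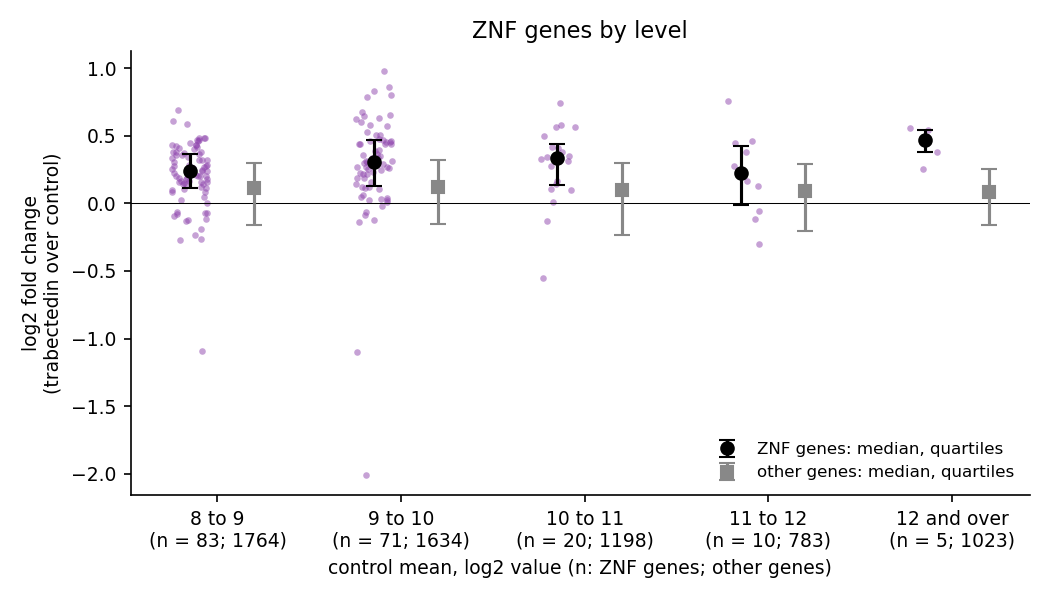
Log2 fold change, trabectedin over control (y axis), of the ZNF genes by control mean log2 value (x axis), with medians and quartiles of the ZNF genes in black and of other genes in grey; n gives the ZNF genes and then the others. The ZNF median is 0.24 in the lowest bin and 0.46 in the highest, which holds 5 genes, against 0.11 and 0.09 for other genes; the ribosomal protein scale would lower every point by 0.287.

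The ZNF gene of the highest level was ZNF888, with 14.44 and 14.42 with trabectedin, against 14.01 and 13.92 in control. It lies near ZNF468 in the ZNF175 to ZNF765 group, and its log2 fold change was 0.46 (SE 0.11). ZNF146, which consists of fingers without a KRAB domain, had 13.19 and 12.82 with trabectedin, against 12.80 and 12.70 in control. Its treated arrays only just cleared the controls. ZNF134 had 13.16 and 12.57 with trabectedin and 12.51 and 12.11 in control. At the threshold, the genes just inside were ZNF184, ZNF486 and ZNF740, with control means of 8.001, 8.02 and 8.06 and log2 fold changes of 0.38, 0.08 and 0.59. Just outside were ZNF484, ZNF230 and ZNF678, with control means of 7.98, 7.95 and 7.95 and log2 fold changes of 0.43, 0.30 and -0.61.

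Of 35 ZNF genes listed for a described role, 19 were at the level, among them ZNF148 and ZNF827 given with the lowest genes. Among repressors of transposable elements, ZNF93, which binds LINE-1 elements, had log2 values of 10.71 and 10.02 with trabectedin, against 10.04 and 9.40 in control. The groups overlapped in spite of a log2 fold change of 0.65. ZNF91, a repressor of SVA elements, had 10.48 and 10.30 with trabectedin, against 10.49 and 10.002 in control, and did not separate either. ZNF224, a KRAB repressor first described at the aldolase A gene, had 9.99 and 9.67 with trabectedin, against 9.26 and 9.20 in control. Its treated arrays were both higher, for a log2 fold change of 0.60 (SE 0.15).

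Among the ZNF proteins without a KRAB domain, ZNF384, which is fused to other genes in acute leukaemia, had 9.68 and 9.52 with trabectedin, against 9.18 and 9.16 in control, a log2 fold change of 0.44 (SE 0.12). ZNF24, a SCAN domain factor, had 11.47 and 10.85 with trabectedin, against 10.69 and 10.51 in control. ZNF318, which in mouse B cells governs the choice between IgM and IgD transcripts, had 9.96 and 9.26 with trabectedin, against 9.20 and 9.02 in control. In both genes trabectedin replicate 1 was the higher by far. ZNF451, a SUMO ligase, had a log2 fold change of 0.36 without overlap of the groups.

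The transcription factors ZNF143, ZNF281 and ZNF410, the last of which drives CHD4, had values of 0.22, 0.24 and 0.12, and the oncogene ZNF217 0.16. ZNF598, the ubiquitin ligase of collided ribosomes, was at 0.14, ZNF326, of the DBIRD splicing complex, at -0.07, and ZNF638, ZNF644 and ZNF292 at 0.02, 0.10 and 0.16. None of these was larger than 2 times its SE. ZNF622, a factor of 60S ribosome assembly, had 8.49 and 9.60 with trabectedin, against 8.02 and 9.52 in control. It split by replicate number and not by treatment, so that its value of 0.27 ran between -0.48 and 1.03 as single arrays were left out. On the ribosomal protein scale the signs of ZNF143, ZNF146, ZNF217, ZNF281, ZNF91, ZNF410, ZNF486, ZNF598, ZNF622, ZNF638, ZNF644 and ZNF292 turned.

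Genes listed for KRAB repression and H3K9 methylation lay on both sides of 0. Of 32 measured, 11 (34.4%) had both treated arrays above both control arrays and 9 (28.1%) below. The list includes the H3K9 demethylases KDM4A and KDM4B, which act against such methylation, and KDM4B (-0.57) is among the 9. The same shares were 35.8% and 13.5% of all genes. Of other genes at the level, where 26 of the 32 stood, they were 32.9% and 23.2%. The median log2 fold change of the 32 genes was 0.03, against 0.0971 over all genes and 0.10 over other genes at the level. Their median length was 40.7 kb, against 31.1 kb in those others. TRIM28 had log2 values of 14.36 and 14.44 with trabectedin, against 13.75 and 13.95 in control, a log2 fold change of 0.55. SETDB1 had 9.04 and 8.74 with trabectedin, against 9.02 and 8.98 in control, with overlapping groups. CBX3, which encodes the heterochromatin protein HP1 gamma, and MORC3, an ATPase that silences transposable elements, had 0.54 and 0.57. ATRX, the remodeller that deposits histone H3.3 with DAXX, had 8.86 and 8.88 with trabectedin, against 9.91 and 9.78 in control, a log2 fold change of -0.98 (limma adjusted p = 0.0762). ATRX, PPHLN1 (-0.70) and GATAD2A (-0.60) were the members lower by at least 1.5-fold, and all are longer than 100 kb. UHRF1, a reader of hemimethylated DNA, was the only one higher by that fold, at 0.86, with 10.47 and 9.36 with trabectedin, against 9.42 and 8.70 in control, so that the groups overlapped. By limma 0 of the 32 passed at an adjusted p under 0.05, and 5 were higher and 6 lower at an unadjusted p under 0.05, which 14.0% of all genes met in either direction.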

How the data were processed

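RNA of 4 U266 cultures was measured on Affymetrix Human Transcriptome Arrays. The deposited values are log2 expression, which the authors obtained by RMA (background correction, quantile normalization and probe summary) in Affymetrix Expression Console. The version and the build were not given in the sources used here. On each array 843 to 899 values were above 16.

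Of 70523 features, 23781 had 1 symbol in the platform annotation, and 1543 with several and 45199 with none were left out. For 528 of 22411 genes with several transcript clusters, the one with the highest mean was kept. Chromosome, order, biotype, length and promoters came from RefSeq (GRCh38.p14), which matched 23777 features. Groups were compared by limma 3.58.1 (lmFit, eBayes, no block) in R 4.3.3, with Benjamini-Hochberg adjustment over all genes, after a test on simulated data. Summaries were made in Python 3.11.15 with pandas 2.3.3.

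The genes and lists were chosen with earlier results of these data known. Named genes were the 10 highest and 10 lowest among ZNF genes whose groups did not overlap, the 3 of the highest level, the 3 on each side of the threshold, and the role and KRAB lists. The other genes past 1.5-fold were counted. Alternatives left out each array, scaled to ribosomal protein genes, took the mean over clusters, normalized by quantiles again, added a trend or the replicate number to the model, used the methods' t-test, kept genes above the median level, and changed the level that chose the genes.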

Additional observations from a re-analysis of the deposited data

How the results depend on the processing

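With each array left out in turn, the ZNF genes higher by at least 1.5-fold numbered 8 to 41 (16 with all arrays) and those lower 2 to 4 (3 with all arrays). Over the same arrays the median log2 fold change ran between 0.14 and 0.41, the excess over other genes at the level between 0.085 and 0.31, chromosome 19 minus other chromosomes between 0.065 and 0.19, and the genes above minus those at or below the median level between 0.12 and 0.19. Genes called by limma numbered 0 to 2, both lower and both called without trabectedin replicate 2 (ZNF609 and ZNF277, 1.06%, against 1.02% of all genes). Repeated quantile normalization left 9 higher genes. Scaling to ribosomal protein genes left 1 higher and 5 lower, with a median of -0.014 and 3 genes called by limma (1.59%, against 3.74% of all genes), all lower. Genes lower by at least 1.5-fold numbered 1 with members chosen by the trabectedin mean, 5 at a control mean of at least 7 and 0 among genes of up to 100 kb, the last chosen after seeing the data. The difference by level was 0.072 with members chosen by the trabectedin mean and 0.076 at a control mean of at least 9. The cause of these shifts was not tested.

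The replicate block in limma called 19 ZNF genes (17 higher and 2 lower, 10.1%), among 1392 of all genes (6.21%). By this fit the adjusted p was 0.0185 in ZNF609, 0.0189 in ZNF827 and 0.0194 in ZNF844. The difference between replicates 1 and 2 correlated between the groups at 0.56 over all genes and 0.59 over the ZNF genes. The cultures came from 2 experiments, but the labels do not say that a number marks an experiment, so the pairing in the block is assumed. The methods' t-test at an unadjusted p under 0.05 gave 26 genes (13.8%), against 10.7% of all genes.

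Of the named genes, ZNF609, ZNF827, ZNF844 and ZNF778 kept their direction under each alternative run. Scaling to ribosomal protein genes gave -0.032 in ZNF146, -0.20 in ZNF486, -0.067 in ZNF143, -0.12 in ZNF217, -0.045 in ZNF281, -0.15 in ZNF91, -0.17 in ZNF410, -0.15 in ZNF598, -0.014 in ZNF622, -0.27 in ZNF638, -0.19 in ZNF644 and -0.13 in ZNF292, and repeated quantile normalization -0.050 in ZNF638. The lowest and highest values with single arrays left out were -0.39 and 0.56 in ZNF486, -0.050 and 0.38 in ZNF217, -0.10 and 0.39 in ZNF91, -0.016 and 0.25 in ZNF410, -0.028 and 0.31 in ZNF598, -0.48 and 1.03 in ZNF622, -0.16 and 0.21 in ZNF638 and -0.033 and 0.36 in ZNF292. The deposited values hold no signal over background for single probes, so that the level of 8 is a choice and not a limit of detection.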

Other observations

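Zinc finger genes of other families at the same control level (ZSCAN, ZKSCAN, ZBTB and ZFP symbols, 19 genes) had a median log2 fold change of 0.29. In 12 of the 19 (63.2%) both trabectedin arrays were above both control arrays and in 1 (5.26%) both were below. These shares were 35.8% and 13.5% of all genes and 32.9% and 23.2% of other genes at the level. A 1.5-fold higher level was reached by 2 (10.5%) and a 1.5-fold lower one by 0. Of all genes 2.8% and 4.63% reached these, and of other genes at the level 5.44% and 11.2%. At an unadjusted p under 0.05 by limma, 6 were higher and 0 lower, where 14.0% of all genes met that p in either direction, and 0 passed after adjustment over all genes. Of the 313 ZNF genes below the level, 135 (43.1%) had both treated arrays above both control arrays and 20 (6.39%) below. At 1.5-fold 9 (2.88%) were higher and 2 (0.639%) lower, against 2.8% and 4.63% of all genes.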
